A study of Homo sapiens with 12 samples.

Results

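The 10 genes described here, SPI1, CEBPA, CEBPB, CEBPE, RUNX1, GFI1, MYB, IRF8, KLF4 and GATA2, encode transcription factors of myeloid blasts and of monocyte maturation. They were chosen by gene symbol, and all 10 had a row among the 20030 genes of the expression table. The mRNA was sequenced from MOLM-13 and THP-1 cells, human acute monocytic leukemia lines with rearranged MLL genes, of which MOLM-13 also carries a FLT3 internal tandem duplication and THP-1 has wild-type FLT3. Each line was cultured with DMSO (control) or with Jiyuan oridonin A (JOA), an ent-kaurene diterpenoid, for 48 h according to the sample records and the methods, while a legend of the study gives a longer time. The JOA concentration was 0.5 μM for MOLM-13 and 2 μM for THP-1, so line and dose changed together and their parts in a difference between the responses cannot be told apart. Each of the 4 groups holds 3 libraries. The labels do not say whether the libraries of a group came from separate cultures, and the study's general remarks on repeated experiments do not tie libraries to them, so the p-values measure only the spread between these libraries, which may be technical.

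Myeloid identity is built by a small set of transcription factors that act together. PU.1, the product of SPI1, and C/EBPα, the product of CEBPA, open the myeloid program in progenitors. GATA2, MYB and RUNX1 belong to the stem and progenitor state, and MYB is needed by leukemia cells driven by MLL fusions. GFI1 represses monocytic genes and favors granulocytes, C/EBPε drives the late granulocytic program, and IRF8, KLF4 and C/EBPβ are tied to the monocyte and macrophage side. The study asked whether JOA releases the differentiation block of MLL-rearranged leukemia cells. Whether these factors take part in that block in MOLM-13 or THP-1 cells was not tested.

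Levels are given as FPKM, a unit made by the authors in which fragments are divided by gene length and by library size. Genes can therefore be compared in level within a library. The summed FPKM ranged from 291127 to 325023 over the 12 libraries, replicate correlations within a group from 0.991 to 0.996, and total depth is unknown. Of the 7 myeloid markers examined, 7 were above 0.1 FPKM in all 12 libraries. Their levels differed widely, from ANPEP at 0.216 to 25.1 FPKM to LYZ at 755 to 3292 FPKM. These markers include SPI1, which also belongs to the 10 factors described here. Of the 10 markers of other lineages, HBB was at 0 in every library. Their summed level was 22.4 to 23.9 FPKM in control and 22.6 to 26.5 in JOA-treated MOLM-13 cells, and 25.7 to 27.4 in control and 30.1 to 34.4 in JOA-treated THP-1 cells. Most of that sum was PECAM1, which monocytes also express, and in MOLM-13 cells KRT18. Without PECAM1 and KRT18 the sum was at most 1.43 FPKM in any library. The part of such RNA in the results below was not tested, and in bulk RNA fewer expressing cells and less RNA per cell cannot be told apart.

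The 10 factors covered a wide range of levels and kept nearly the same order in every group. CEBPA was the highest, with a mean and SD over 3 libraries of 181 ± 10.7 FPKM in untreated MOLM-13 and 208 ± 3.16 FPKM in untreated THP-1 cells. IRF8 and MYB followed. In control MOLM-13 cells the order went on with SPI1, GFI1, RUNX1, CEBPB, GATA2, KLF4 and CEBPE. CEBPA overlapped with IRF8 there, and RUNX1 with CEBPB, while all other neighbors were apart in all 3 libraries. In control THP-1 cells CEBPE stood above GATA2 and KLF4, CEBPB overlapped with RUNX1, and GATA2 overlapped with KLF4. All 10 factors passed the filter on low values (a mean of at least 0.1 FPKM) in every comparison.

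**Figure D1:**
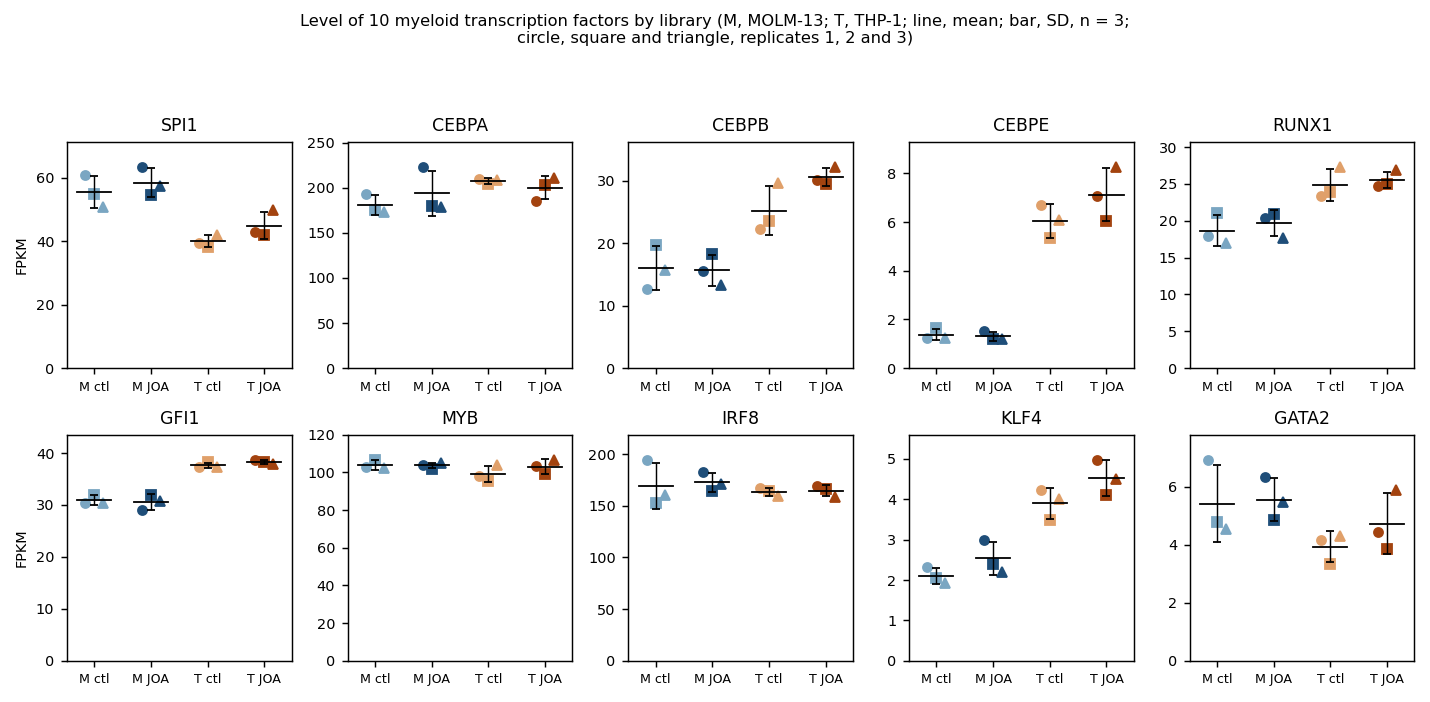
Level in FPKM (y axis, from 0) of each of the 10 factors in the 12 libraries, by group on the x axis, with the group mean as a line and the SD (n = 3) as a bar. CEBPE, CEBPB and KLF4 were higher in THP-1 than in MOLM-13 libraries, and the JOA libraries lay close to the control libraries of their own line.

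The treatment was compared with control in each line by limma on log2(FPKM + 0.1) across all genes above the filter. Calls required both an adjusted p (Benjamini-Hochberg) under 0.05 and a log2 fold change of 0.58 or more in either direction. In MOLM-13 cells 0 of the 10 factors were called by limma, as were 0% of the 11693 genes tested. The study itself, with DESeq, a count test, at the same thresholds, reported changed genes in both lines. An unadjusted p under 0.05 was reached by 0 of the factors and by 4.11% of the genes. The log2 fold changes of the factors lay between -0.06 (CEBPE) and 0.25 (KLF4), with a median of 0.04 against 0.01 for all genes. The groups did not overlap in 0 of the 10, against 9.65% of the genes. No 95% interval of a factor reached past 0.55 in size on the log2 scale.

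SPI1 and CEBPA, which set up the myeloid program, stayed near their control levels in MOLM-13 cells. The SPI1 level was 60.8, 55.0 and 50.7 FPKM without JOA and 63.3, 54.5 and 57.3 FPKM with JOA. The CEBPA level was 193, 176 and 173 FPKM without JOA and 223, 179.6 and 179 FPKM with JOA. Its one high JOA value, in replicate 1, lay beside the highest control value, also in replicate 1, and the groups overlapped. The 95% interval of the log2 fold change was -0.12 to 0.27 for SPI1 and -0.13 to 0.32 for CEBPA.

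The progenitor factors of MOLM-13 cells overlapped between the groups as well. MYB, the proto-oncogene that blasts depend on, was at 103, 107 and 102 FPKM in control libraries and at 104, 102 and 105 FPKM with JOA, a log2 fold change of -0.00 (95% interval -0.13 to 0.12). RUNX1, the partner of CBFB in the core binding factor, was at 18.0, 21.0 and 17.0 FPKM and at 20.4, 20.9 and 17.6 FPKM. Their JOA values lay within or next to the control range. GATA2 was at 6.94, 4.80 and 4.53 FPKM in control libraries and at 6.34, 4.87 and 5.47 FPKM with JOA, and replicate 1 was the highest in both groups.

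Among the factors of maturation, KLF4 had the largest log2 fold change in MOLM-13 cells. KLF4, which drives monocyte differentiation, was at 2.33, 2.06 and 1.94 FPKM in control libraries and at 2.99, 2.41 and 2.21 FPKM with JOA. Each JOA value exceeded the control value of the same replicate number, although the groups overlapped. This amounted to 0.25 on the log2 scale, with a standard error of 0.13 and, by limma, an adjusted p of 1.00. Without JOA replicate 1 it was 0.13. Control and JOA libraries share replicate numbers, which were taken as pairs because same-numbered libraries deviated alike, while the labels state no pairing. With the number as a block in the same fit, KLF4 reached an unadjusted p of 0.0174 and, by limma, an adjusted p of 0.381. In that fit 11.1% of genes had an unadjusted p under 0.05 and 0% were called.

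The other factors of maturation showed no common direction in MOLM-13 cells. IRF8, the monocyte and dendritic cell factor, was at 195, 153 and 161 FPKM in control libraries and at 183, 164 and 171 FPKM with JOA. CEBPB was at 12.7, 19.7 and 15.8 FPKM and then at 15.5, 18.3 and 13.3 FPKM. The control values enclosed all 3 JOA values of both genes. CEBPE was at 1.22, 1.64 and 1.26 FPKM and at 1.53, 1.19 and 1.20 FPKM. GFI1, the repressor, was at 30.4, 32.0 and 30.5 FPKM and at 29.0, 31.9 and 30.8 FPKM, again with overlap.

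In THP-1 cells 0 of the 10 factors were called by limma, against 0.134% of the 12712 genes tested. The log2 fold changes lay between -0.06 (CEBPA) and 0.29 (CEBPB), with a median of 0.11 for the factors and 0.02 for all genes. Of the 10, 9 were above 0. The median of all genes was slightly above 0 too, and the share of all genes above 0 is not given here. Of those 9, IRF8, GFI1, RUNX1 and MYB were at 0.06 or less. An unadjusted p under 0.05 was reached by 1 of the 10, CEBPB, and by 16.9% of the genes. With the replicate number as a block, 0 were called, against 1.27% of the genes. Under the block 5 of the 10 had an unadjusted p under 0.05, as did 26% of the genes. These were SPI1, CEBPB, CEBPE, KLF4 and GATA2, each with a log2 fold change above 0.

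CEBPB, an inflammatory and macrophage factor of the C/EBP family, had the largest log2 fold change of the 10 in THP-1 cells. It was at 22.3, 23.6 and 29.7 FPKM in control libraries and at 30.1, 29.4 and 32.2 FPKM with JOA, so that only control replicate 3 reached into the JOA range. This amounted to 0.29 on the log2 scale, with a standard error of 0.10 and, by limma, an adjusted p of 0.216. With the replicate number as a block its adjusted p was 0.0354 by limma, the one factor under 0.05, and the change stayed below the fold threshold. CEBPB-AS1, on the other strand, overlaps its exon, as antisense genes do for CEBPA and MYB, and whether the authors' counting used the strand of the reads is not given in the sources used here.

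SPI1 was the 1 factor of 10 whose THP-1 groups did not overlap, against 23.4% of the genes tested. Its values were 39.6, 38.3 and 42.0 FPKM in control libraries and 42.7, 42.0 and 49.8 FPKM with JOA. The highest control value and the lowest JOA value were nearly equal, and JOA replicate 3 stood above the rest. The log2 fold change of SPI1 was 0.16 (standard error 0.07), and limma gave an adjusted p of 0.315, or 0.0631 with the block. Without JOA replicate 3 it was 0.09.

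CEBPA did not share that direction in THP-1 cells. It was at 210.0, 204 and 209 FPKM in control libraries and at 186, 203 and 211 FPKM with JOA, a log2 fold change of -0.06 (95% interval -0.19 to 0.08).

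The granulocytic and monocytic factors CEBPE and KLF4 also had higher means with JOA in THP-1 cells. CEBPE was at 6.70, 5.34 and 6.09 FPKM in control libraries and at 7.07, 6.05 and 8.26 FPKM with JOA. KLF4 was at 4.23, 3.48 and 4.01 FPKM and at 4.98, 4.10 and 4.51 FPKM. In both genes the groups overlapped, while JOA exceeded control within each of the 3 replicate numbers. The log2 fold change was 0.23 for CEBPE (standard error 0.13) and 0.21 for KLF4 (standard error 0.10), and the adjusted p by limma was 0.400 and 0.351, or 0.117 and 0.0867 with the block. Without JOA replicate 3 the estimate for CEBPE was 0.12, and without control replicate 2 that for KLF4 was 0.13. KLF4 was the 1 factor of 10 higher with JOA in all 6 numbered pairs of the 2 lines, a pattern of 8.22% of genes tested in both. Over THP-1 alone, 7 of the 10 factors were higher in all 3 pairs, against 29.3% of the genes, and in MOLM-13 cells 2 of the 10, against 18.5%.

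GATA2, the progenitor factor, was at 4.19, 3.34 and 4.30 FPKM in control THP-1 libraries and at 4.43, 3.85 and 5.90 FPKM with JOA. The estimate of 0.24 on the log2 scale had the widest interval of the 10, -0.13 to 0.62, and without JOA replicate 3 it was 0.07. MYB was at 98.3, 95.3 and 104 FPKM and at 104, 99.1 and 107 FPKM, with overlapping groups. RUNX1 was at 23.3, 23.9 and 27.3 FPKM in control libraries and at 24.8, 25.0 and 26.8 FPKM with JOA. GFI1 was at 37.3, 38.2 and 37.3 FPKM and at 38.7, 38.3 and 37.9 FPKM. IRF8 was at 167, 164 and 159 FPKM and at 169, 166 and 159 FPKM. The log2 fold change was 0.06 for MYB, 0.04 for RUNX1 and 0.03 for GFI1. That of IRF8 was 0.01, and -0.01 with median-of-ratios scaling. The widest of their intervals, that of RUNX1, was -0.12 to 0.20.

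**Figure D2:**
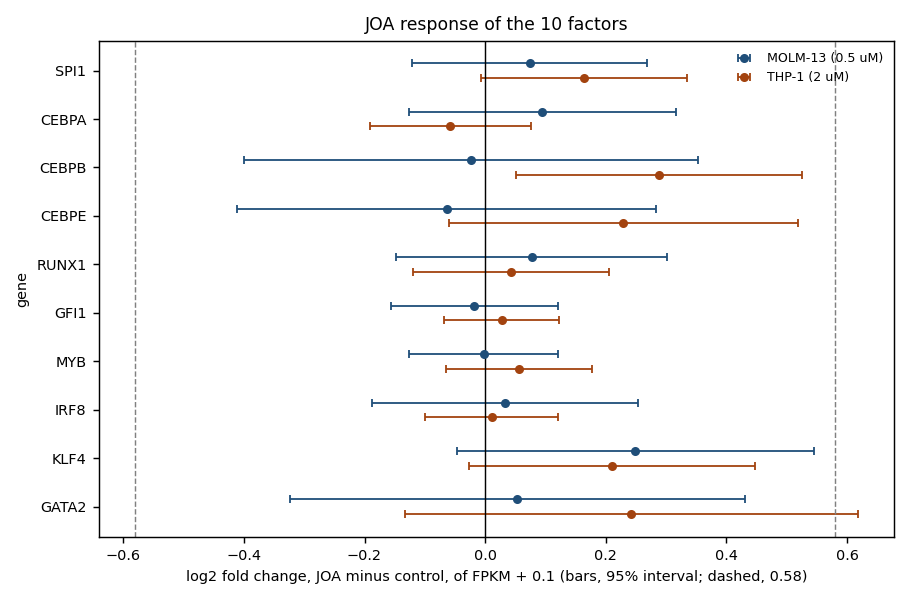
Log2 fold change of JOA minus control (x axis, log2 of FPKM + 0.1) for the 10 factors in MOLM-13 (0.5 μM) and THP-1 cells (2 μM), with 95% intervals from limma and dashed lines at the fold threshold of 0.58. The estimates lay between -0.06 and 0.29, inside the dashed lines.

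Whether the response differed by line was tested with the interaction term of a fit to all 12 libraries. By limma 0 of the 10 factors had an adjusted p under 0.05, as did 0% of 12626 genes, and 0 had an unadjusted p under 0.05, against 7.24% of the genes. The largest difference was in CEBPB, 0.31 on the log2 scale (95% interval -0.17 to 0.79), with THP-1 the higher, and it was 0.15 without MOLM-13 control replicate 2. With the block CEBPB reached an unadjusted p of 0.0473 and, by limma, an adjusted p of 0.328. Under the block 14.9% of the genes had an unadjusted p under 0.05 and 0.0475% were called. CEBPE followed with 0.29 (95% interval -0.16 to 0.74), or 0.17 without the same library. The intervals of these genes still allow differences of more than 0.58.

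Between the untreated lines the factors differed far more than between treatments. Of the 10, 3 were called higher in control THP-1 cells and 0 lower by limma, where 44% of 12635 genes were called, 25% higher and 19% lower. The groups did not overlap in 8 of the 10, against 74.8% of all genes, so the share of differing factors was near that of genes in general. The called factors were CEBPE, KLF4 and CEBPB, and all 3 were also called in the same direction between the JOA-treated lines, a comparison added after the data were seen, in which 45% of genes were called. At these thresholds 39.8% of genes were called in the same direction in both comparisons.

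CEBPE, the granulocytic member of the C/EBP family, differed most. Its level (mean ± SD, n = 3) was 1.37 ± 0.233 FPKM in MOLM-13 and 6.05 ± 0.681 FPKM in THP-1 control libraries, a log2 difference of 2.07 (standard error 0.14, adjusted p = 3.59e-06 by limma) or 4.19-fold. Among JOA-treated libraries the log2 difference was 2.36 (standard error 0.14). CEBPE lies on chromosome 14 from 23117304 to 23119616 on the minus strand (GENCODE 29, GRCh38). KLF4, on chromosome 9 from 107484852 to 107490482 on the minus strand, was at 2.11 ± 0.199 and 3.90 ± 0.382 FPKM, 0.86 on the log2 scale (standard error 0.11, adjusted p = 0.000182 by limma).

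CEBPB, a gene of a single exon on chromosome 20 from 50190734 to 50192689 on the plus strand, was at 16.1 ± 3.51 FPKM in control MOLM-13 cells and 25.2 ± 3.94 in control THP-1 cells (SD, n = 3). Its log2 difference of 0.66 (standard error 0.16, adjusted p = 0.00684 by limma) was near the fold threshold. It fell to 0.50 without MOLM-13 control replicate 1 and to 0.53 without THP-1 control replicate 3, below that threshold. Among JOA-treated libraries it was 0.97 (standard error 0.11).

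The promoters of these 3 called factors are shown for the DNA that lies before their RefSeq start sites, where members of the same network could be looked for by their letters. Of the 10 factors, 9 had an entry, SPI1 being the one without. The sequences are from RefSeq on GRCh38.p14, 5′ to 3′ on the gene's strand, with capitals marking any match on either strand to the core letters GAGGAA of PU.1, TGTGGT of RUNX factors, TTGCNNAA of C/EBP factors, TAACNG of MYB, AGATAA of GATA factors, CCCACCC of KLF factors or AAATCA of GFI1. The window of CEBPE falls within the first exon of the GENCODE transcript, which starts further upstream, so 30 bases around its one match are given (chr14:23119279-23119308, minus strand). The windows of KLF4 (chr9:107489770-107490019, minus strand) and CEBPB (chr20:50190333-50190582, plus strand) are the 250 bases before the RefSeq start. That of KLF4 lies inside the GENCODE gene, in an intron of a transcript that starts further upstream.

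CEBPE: gcattgactacaGAGGAAggaaaaggaagc
KLF4: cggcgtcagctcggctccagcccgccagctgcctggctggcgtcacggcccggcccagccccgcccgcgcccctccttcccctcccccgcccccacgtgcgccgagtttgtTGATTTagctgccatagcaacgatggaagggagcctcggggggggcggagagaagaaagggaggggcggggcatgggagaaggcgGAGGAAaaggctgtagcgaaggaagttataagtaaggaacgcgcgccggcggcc
CEBPB: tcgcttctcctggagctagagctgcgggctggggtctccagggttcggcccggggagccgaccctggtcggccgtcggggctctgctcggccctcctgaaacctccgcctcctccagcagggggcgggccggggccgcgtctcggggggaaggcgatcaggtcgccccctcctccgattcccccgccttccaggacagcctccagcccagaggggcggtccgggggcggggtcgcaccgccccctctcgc

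The PU.1 letters GAGGAA stood 41 to 36 bases before the start in CEBPE and 54 to 49 bases before it in KLF4, and a GFI1 match stood 139 to 134 bases before the start of KLF4 on the other strand. CEBPB held none of the core letters searched. Among the 9 factors with an entry, GAGGAA occurred in 3 (CEBPE, KLF4 and RUNX1), and in 23.4% of 27303 promoters of the same length. The RUNX letters occurred in 1 (IRF8) and in 10.9% of promoters, the KLF letters in 1 (GATA2) and in 17.4%, and the GFI1 letters in 1 (KLF4) and in 11.7%. The C/EBP, MYB and GATA letters occurred in 0 of the 9, and in 9.13%, 17.6% and 9.37% of promoters. The GC content of the 250 bases was 75.6% in CEBPB, 69.2% in KLF4 and 57.2% in CEBPE, with a median of 58% over all promoters. A match of letters is no evidence of binding.

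SPI1 and GATA2 were lower in control THP-1 than in control MOLM-13 cells, without overlap and below the fold threshold. SPI1 was at 55.5 ± 5.08 FPKM in MOLM-13 and 39.9 ± 1.90 FPKM in THP-1 cells (SD, n = 3), a log2 difference of -0.47 (standard error 0.08, adjusted p = 0.000711 by limma). GATA2 was at 5.42 ± 1.32 and 3.94 ± 0.527 FPKM, a log2 difference of -0.43 (adjusted p = 0.0490 by limma). Without MOLM-13 control replicate 1, the highest of the 6 control libraries, the GATA2 difference was -0.25. When each library was left out in turn, its adjusted p by limma ranged from 0.0306 to 0.163. Between the JOA-treated lines SPI1 differed by -0.38, and GATA2 by -0.24 with overlapping values.

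RUNX1, GFI1 and CEBPA were higher in control THP-1 cells, likewise without overlap and below the fold threshold. The log2 difference was 0.41 for RUNX1 (18.7 ± 2.11 against 24.8 ± 2.15 FPKM), 0.28 for GFI1 (30.9 ± 0.878 against 37.6 ± 0.526 FPKM) and 0.20 for CEBPA, with adjusted p by limma of 0.00479, 0.00144 and 0.0192. Leaving out each library in turn gave CEBPA an adjusted p by limma of 0.00303 to 0.0648 between the control lines. CEBPA overlapped between the JOA-treated lines, at 0.05 on the log2 scale. MYB and IRF8 were alike in level in both lines within their intervals. The log2 difference was -0.07 for MYB (95% interval -0.20 to 0.06) and -0.05 for IRF8 (95% interval -0.26 to 0.17), and both became positive, at 0.02 and 0.04, when FPKM were rescaled to TPM.

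**Figure D3:**
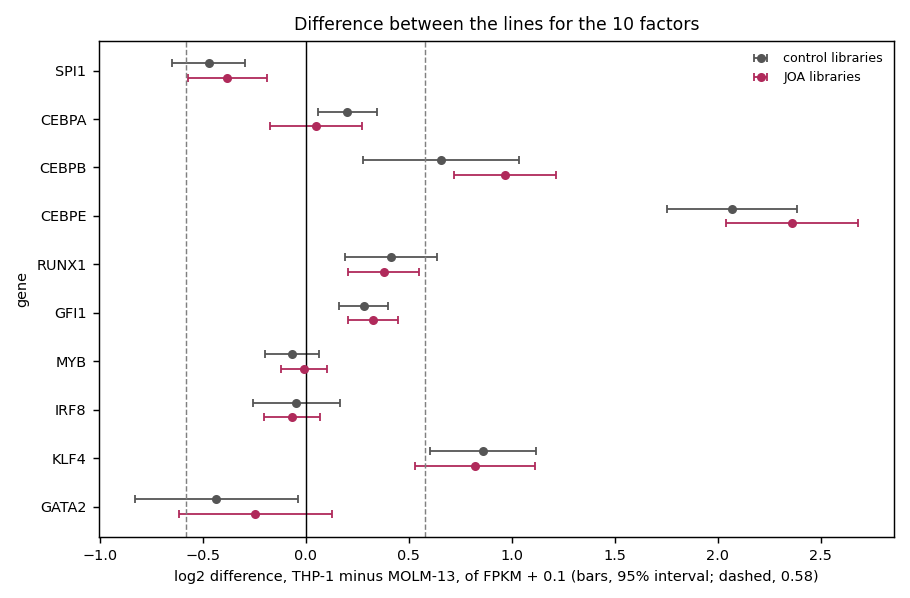
Log2 difference of THP-1 minus MOLM-13 (x axis, log2 of FPKM + 0.1) for the 10 factors, from the control libraries and, separately, from the JOA libraries, with 95% intervals from limma and dashed lines at 0.58. CEBPE, KLF4 and CEBPB lay above the threshold in both sets of libraries, and SPI1 lay below 0 in both.

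The related genes were counted in 5 lists. In MOLM-13 cells 0 genes of any list were called with JOA by limma. In THP-1 cells 0 of the 80 genes tested were called without the block as well, and 6 with it, where 1.27% of all genes were called. Of the 24 monocyte and macrophage factors tested in THP-1 cells, 16 had a log2 fold change above 0, with a median of 0.18 against 0.02 for all genes. KLF2, a Krüppel-like zinc finger factor, had a log2 fold change of 1.10 and the immediate early factor EGR1 of 0.68. Their adjusted p by limma was 0.262 and 0.0805 without the block, and 0.00793 and 0.00659 with it, and both were called with the block.

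Among 17 target genes of PU.1 and C/EBP factors tested in THP-1 cells, 8 were above 0 and 9 below, with a median log2 fold change of -0.02. ITGAM, which encodes CD11b, had a log2 fold change of 0.71, and MPO, the azurophil granule peroxidase of myeloblasts and promyelocytes, of -0.64. With the block 2 targets were called higher, ITGAM among them, and 1 lower, MPO, where 1.27% of all genes were called. The adjusted p by limma was 0.0348 for ITGAM and 0.00659 for MPO with the block, against 0.103 and 0.399 without it. In MOLM-13 cells 13 of 19 targets were above 0, with a median of 0.17, and the estimate for ITGAM was 0.39 on the log2 scale (limma adjusted p = 1.00).

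In the other lists 0 genes were called with JOA, with or without the block. The median log2 fold change of 11 stem and progenitor factors was -0.01 in MOLM-13 and 0.05 in THP-1 cells, and SOX4 had the largest, at -0.37 in THP-1 cells (adjusted p = 0.0543 by limma). Of the 8 C/EBP and PU.1 relatives tested, CEBPD had the largest log2 fold change in both lines, at 0.23 and 0.21. Among 20 partners and cofactors in THP-1 cells, DDIT3, a C/EBP homolog that dimerizes with family members under stress, had an estimate of 0.38 on the log2 scale (limma adjusted p = 0.0394), below the fold threshold.

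Between the untreated lines 44% of all genes were called, and the lists were read against that share. Of 11 stem and progenitor factors tested, 5 were called lower and 2 higher in THP-1 cells, where 19% and 25% of all genes were. MEIS1 (10.5 against 2.79 FPKM), HOXA9 (51.0 against 17.6 FPKM), MYC (111 against 36.4 FPKM) and BCL11A (3.04 against 0.612 FPKM) were lower in THP-1 than in MOLM-13 cells, and LYL1 and SOX4 were higher. MEIS1 and HOXA9 are homeobox factors that MLL fusions drive. Of 24 monocyte and macrophage factors, 5 were called higher, among them PPARG, and 3 lower (ID2, NFIL3 and MITF). PPARG, a nuclear receptor of macrophages, was at 0.399 FPKM in MOLM-13 and 1.52 FPKM in THP-1 cells.

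Of 20 partners of the factors tested, 8 were called higher in THP-1 cells and 2 lower, a share near the 44% of all genes. The largest log2 differences among the 8 were those of TRIB2 (1.91), KLF1 (1.60), MYBL2 (1.28) and KLF5 (1.14). TRIB2 and KLF1 were near the floor, at 0.0212 and 0.0942 FPKM in MOLM-13 and 0.360 and 0.486 FPKM in THP-1 cells. The size of their differences therefore depends on the 0.1 FPKM added before the log. RUNX2, a paralog of RUNX1, was at 17.0 FPKM in MOLM-13 and 0.988 FPKM in THP-1 cells, a log2 difference of -3.99. RUNX3 (0.88) and the shared partner CBFB (0.78) were higher in THP-1 cells, with smaller differences than those 4 genes. TRIB1, a pseudokinase that promotes degradation of C/EBPα, was lower in THP-1 cells (-1.64), while TRIB2 went the other way, as given above. COP1, the ubiquitin ligase that TRIB1 recruits, was higher (0.81). C/EBPα protein was not measured in these data. Of the 8 relatives, CEBPD (-0.84) and SPIB (-0.87) were called lower in THP-1 cells and 0 higher, where 19% and 25% of all genes were. Of 18 targets, 9 were called higher against the same 25%, led by CSF1R (1.91), the M-CSF receptor, and CAMP (1.69), and 5 lower against 19%, including BTK (-1.39) and CSF3R (-1.32), the G-CSF receptor.

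**Figure D4:**
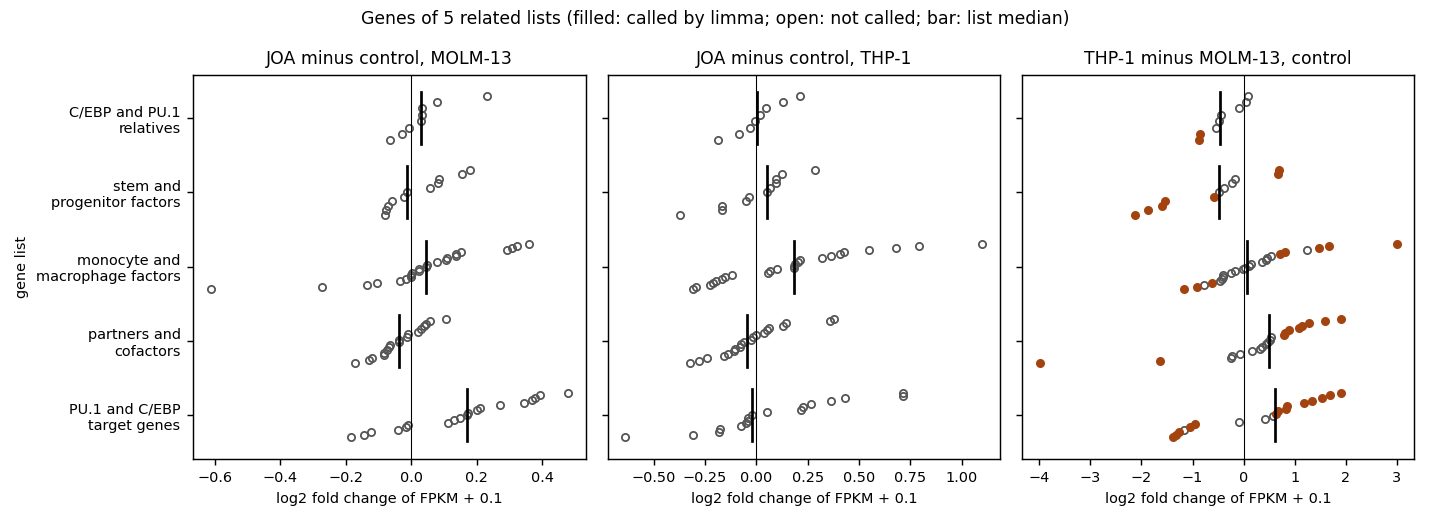
Log2 fold change of each tested gene (circles) of the 5 related lists, for JOA minus control in MOLM-13 and in THP-1 cells and for THP-1 minus MOLM-13 in control libraries, with a separate x scale in each panel; filled circles were called by limma and vertical bars are list medians. No circle is filled in the treatment panels, and all 5 lists hold filled circles in the panel of the lines.

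The genes whose pattern over the 12 libraries was nearest to each factor were found by the root mean square distance between centered log2 values among 10057 genes with a mean of at least 1 FPKM. For CEBPE these were LAT and ZNF273, at distances of 0.149 and 0.164, where CEBPE itself varied by 1.12 around its mean. For KLF4 they were EMILIN2 and C2CD2L (0.0931 and 0.0960), for CEBPB GPR137 and SELENOW (0.134 and 0.140), and for SPI1 ZNF317 and NXF1 (0.0695 and 0.0700). CEBPA, which varied by 0.117, was nearest to JPT1 and MRPL46 (0.0562 and 0.0581). GATA2, which varied by 0.287, was nearest to CPT1A and APMAP (0.146 and 0.149), so much of its variation was not shared. GFI1 was nearest to AEBP2 and to a gene whose symbol stands as a date in the table. MYB, which varied by only 0.0466, was nearest to SNAP29 and PAFAH1B1 (0.0304 and 0.0409). IRF8, which varied by 0.0901, was nearest to VCP and PPM1G (0.0359 and 0.0461).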

How the data were processed

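Stranded mRNA libraries were sequenced as paired ends on an Illumina instrument. The submitters' processing notes name Trimmomatic, HISAT2, HTSeq, Cufflinks and the build hg38, while the annotation and the strand setting of the counting are not given in the sources used here. The deposited values are FPKM per gene and library, made by the authors, and no counts were used, so depth is unknown and no count model was run. Of the 20030 genes, 3488 were at 0 in all 12 libraries, and some symbols stand as dates.

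Values were transformed as log2(FPKM + 0.1), and genes with a mean of at least 0.1 FPKM over the fitted libraries were tested with limma 3.58.1 in R 4.3.3 (trended empirical Bayes, Benjamini-Hochberg adjustment over all genes tested, 95% intervals). The interaction was called by adjusted p alone. On simulated data with 200 changed genes, the MOLM-13 comparison (12488 genes) recovered 96% of changes of size 1 on the log2 scale with 11 false calls, and the interaction (12507 genes) 82% with 10 false calls. The simulated noise was independent between libraries, without pairs, and the changed genes had a mean of at least 1 FPKM. No change below 1 was simulated, so the recovery of changes as small as those of the factors with JOA was not tested.

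Replicate numbers in the labels are shared by control and JOA libraries. Deviations of same-numbered libraries correlated at 0.407 to 0.580 in MOLM-13 and 0.297 to 0.541 in THP-1 cells, so the numbers were taken as pairs within a line and the blocked fit is given beside the unblocked one. Between the control libraries of the lines the correlation was 0.0757 to 0.180.

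The factors and lists were chosen with earlier results of these data known. All 10 factors are described, and of each list the genes with the largest changes or called changes. RUNX3, CBFB and COP1 were named after their values were seen. Alternatives were another pseudocount, other filters, TPM, median-of-ratios scaling, one fit on all libraries, the block, and leaving out each library. Results of some genes are not reported here.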

Additional observations from a re-analysis of the deposited data

How the results depend on the processing

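With every setting that kept all libraries, 3 of the 10 factors were called between the untreated lines and 0 in the other comparisons. Leaving out 1 library gave 2 to 3 called factors between the lines and 0 elsewhere. Counts over all genes moved more. In MOLM-13 cells the count of 0 became 1 when every gene with any value above 0 was tested. In THP-1 cells the count of 17 became 8 with a pseudocount of 1 FPKM, 0 with every gene above 0, 161 with the replicate block and 51 with one fit on all 12 libraries. The interaction count of 0 became 1, 3 and 6 with the pseudocount of 1, every gene above 0 and the replicate block. Without 1 library the counts were 0 to 0 in MOLM-13, 0 to 1 in THP-1, 5448 to 5718 between the lines and 0 to 0 for the interaction. Between the lines the replicate block gave 5593 genes against 5559, although these numbers were not taken as pairs.

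Some small changes turned sign. IRF8 with JOA in THP-1 cells was -0.0115 on the log2 scale with median-of-ratios scaling. With TPM the difference between the lines was 0.0158 for MYB and 0.0376 for IRF8, and the interaction was 0.00164 for RUNX1 and 0.0138 for IRF8. Without 1 library the log2 fold change in MOLM-13 cells ranged from -0.0101 to 0.149 for CEBPA, -0.178 to 0.135 for CEBPB, -0.173 to 0.0631 for CEBPE, -0.0501 to 0.0190 for GFI1, -0.0140 to 0.0173 for MYB, -0.0372 to 0.137 for IRF8 and -0.0608 to 0.242 for GATA2. In THP-1 cells it ranged from -0.00145 to 0.112 for RUNX1 and -0.00762 to 0.0363 for IRF8. Between the lines IRF8 ranged from -0.116 to 0.0585. The interaction ranged from -0.123 to 0.0351 for RUNX1, -0.126 to 0.0479 for IRF8 and -0.129 to 0.0805 for KLF4. The cause was not tested. With 3 libraries a group and no counts, precision is limited.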
